A study of Homo sapiens with 7 samples.

Results

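Natural antisense RNAs are transcripts read from the DNA strand opposite to a protein-coding gene, and many are long noncoding RNAs named after that gene with the ending -AS and a number. The antisense RNAs described here are the rows of the expression table whose symbol has that ending, 121 of 13872 listed genes, with 2 HOX antisense RNAs left out. Each was set beside the sense gene that its symbol names, where that gene had a row of its own. The libraries came from UM-UC-3, an established line of human urothelial carcinoma (bladder cancer). Total RNA was sequenced from 3 ALDH-high clones (numbers 1, 6 and 10), 3 ALDH-low clones (numbers 1, 3 and 8) and 1 wild-type culture, with no other treatment named. Clones were sorted by the ALDEFLUOR assay, in which cells fluoresce according to their aldehyde dehydrogenase (ALDH) activity, and the submitters treat the ALDH-high clones as stem-like cells. Every clone derives from 1 cell line and gave 1 library, so n = 3 counts clones of that line, and the wild type has no replicate.

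Antisense RNAs differ in how they sit on their sense gene. Some start close to the sense promoter and run away from it (head to head), while others overlap the sense transcript or lie inside it. Depending on the gene, such RNAs have been described as acting on the sense gene in cis, as acting elsewhere in trans, or as products of a shared promoter with no known role of their own. Of the 121 antisense RNAs, 99 had their sense gene in the table, and in 98 of these pairs the table puts the genes on opposite strands. By the gene models of GENCODE release 29 (GRCh38), matched by identifier for 97 pairs, 51 pairs were head to head with starts within 1 kb, 37 overlapped in part, 8 had the antisense gene inside the sense gene and 1 did not overlap. That release types 2 of the 121 as protein-coding and 2 as transcribed unitary pseudogenes, so the name alone does not make them noncoding.

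Values are CPM, counts scaled by library size, as deposited, and 1 read is about 0.04 CPM. The recovered reads in listed genes were 24177114 to 25664901 per library. The library size behind the CPM was 24365061 to 25456516 reads, so 3 reads, the limit that a count of 0 allows, are 0.118 to 0.123 CPM. How reads were assigned to strands was not given in the sources used here, and without strand the reads of overlapping partners cannot be told apart. No antisense RNA shared its values with its sense partner, and 0 of the 488 sets of genes with identical values mixed strands. However, 7 antisense RNAs shared all 7 values with another gene of the same strand, such as a small nucleolar RNA inside them, and the source of those reads is uncertain. The epithelial keratins KRT8 (56.16 to 391.35 CPM) and KRT18 (142.95 to 582.39 CPM) were present in every library, while KRT7 was low (1.48 to 7.19 CPM). These were 3 of the 6 epithelial marker genes looked up, and the others, EPCAM, CDH1 and KRT19, had no row. Of 8 luminal urothelial genes, PPARG and FOXA1 had rows and stayed at or under 7.94 CPM. The look-up gave 0 rows for 4 basal urothelial, 5 fibroblast and 3 endothelial genes. Of 3 leukocyte genes, CD68, which other cells also express, was at 64.36 to 139.04 CPM. Wild type and ALDH-high clone 1 were the 2 highest libraries for 32 of 121 antisense RNAs (26.4%), against 14.5% of all listed genes. They were the commonest such pair in both lists. Wild type and ALDH-low clone 8 were the 2 highest for 12 (9.92%), against 4.05%. By itself, ALDH-high clone 1 was the highest library for 14.9% of antisense RNAs, against 13.1% of all listed genes, and the wild type for 50.4%, against 23.8%. Since these are bulk libraries, fewer cells with an RNA and less of it per cell cannot be told apart.

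The 300 bases around an annotated start of an RNA give the promoter sequence at that start. Only the start annotated there is described, and whether the counted reads came from it was not tested. These windows come from RefSeq (GRCh38.p14), run 5′ to 3′ on the gene's own strand, and hold 250 bases before the start and 50 after it. They are shown for the called PTPRG-AS1 and MYLK with their partners, and for TM4SF1-AS1, whose wild-type level is described below. No window is shown for the APCDD1L pair. In capitals are matches on either strand to the TATA box (TATAAA), the CCAAT box (CCAAT) and the cAMP response element (TGACGTCA).
PTPRG-AS1 (chr3:62318898-62319197, minus strand): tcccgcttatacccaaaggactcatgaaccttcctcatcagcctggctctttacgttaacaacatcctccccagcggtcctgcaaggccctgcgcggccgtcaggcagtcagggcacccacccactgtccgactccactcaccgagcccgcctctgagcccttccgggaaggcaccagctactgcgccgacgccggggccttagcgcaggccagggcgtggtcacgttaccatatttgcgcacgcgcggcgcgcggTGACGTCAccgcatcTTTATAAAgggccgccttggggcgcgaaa
PTPRG (chr3:61561321-61561620, plus strand): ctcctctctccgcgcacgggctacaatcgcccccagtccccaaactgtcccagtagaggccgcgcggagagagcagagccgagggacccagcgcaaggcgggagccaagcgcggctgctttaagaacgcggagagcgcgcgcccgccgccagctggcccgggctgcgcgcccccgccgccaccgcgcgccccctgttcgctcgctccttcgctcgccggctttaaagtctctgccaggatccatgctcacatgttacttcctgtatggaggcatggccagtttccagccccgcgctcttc
MYLK-AS1 (chr3:123585263-123585562, plus strand): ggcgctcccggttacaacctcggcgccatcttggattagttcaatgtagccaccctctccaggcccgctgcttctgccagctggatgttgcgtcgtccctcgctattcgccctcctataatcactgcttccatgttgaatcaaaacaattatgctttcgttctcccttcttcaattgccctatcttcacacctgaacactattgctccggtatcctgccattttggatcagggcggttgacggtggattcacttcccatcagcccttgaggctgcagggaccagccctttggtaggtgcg
MYLK (chr3:123620499-123620798, minus strand): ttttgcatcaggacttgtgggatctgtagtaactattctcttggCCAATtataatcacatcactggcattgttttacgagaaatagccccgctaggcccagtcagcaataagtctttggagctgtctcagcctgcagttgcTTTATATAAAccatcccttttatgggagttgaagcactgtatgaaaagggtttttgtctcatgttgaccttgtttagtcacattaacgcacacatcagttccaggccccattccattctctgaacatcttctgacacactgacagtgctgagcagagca
TM4SF1-AS1 (chr3:149377528-149377827, plus strand): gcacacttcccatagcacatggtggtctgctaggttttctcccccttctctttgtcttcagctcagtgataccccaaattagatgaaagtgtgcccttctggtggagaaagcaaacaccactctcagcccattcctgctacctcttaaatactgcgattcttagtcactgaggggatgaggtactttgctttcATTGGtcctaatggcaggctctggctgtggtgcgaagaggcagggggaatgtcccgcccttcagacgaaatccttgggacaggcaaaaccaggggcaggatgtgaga

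The PTPRG-AS1 window holds 29 CpG dinucleotides and the PTPRG window 34, against a median of 14 over all 35116 windows of that length in the table. Both starts of this pair thus lie in CpG-rich stretches, far apart on the chromosome. The PTPRG-AS1 window has a cAMP response element match that begins 7 bases after the start, and 1.85% of all windows hold one. Its TATA-box matches, on both strands and overlapping, also lie after the start, and 11.5% of all windows hold a TATA-box match. In contrast, the window at this annotated start of MYLK has 3 CpG dinucleotides and TATA-box matches 105 and 109 bases before the start, on opposite strands and overlapping. It also has a CCAAT box 206 bases before the start, and 34.6% of all windows hold a CCAAT match. The MYLK-AS1 window has 14 CpG dinucleotides and none of these matches. The TM4SF1-AS1 window has 4 CpG dinucleotides and shares 228 bases, read from the opposite strand, with the window of TM4SF1 itself. A match is a run of letters and was not tested as a binding site.

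Comparing ALDH-high with ALDH-low clones, 1 antisense RNA rose and 1 fell. They were PTPRG-AS1 and APCDD1L-AS1. The test was limma on log2(CPM + 1), with p-values adjusted by the Benjamini-Hochberg method over all 12705 genes that reached 1 CPM in no fewer than 3 of the 6 clones. Of the antisense RNAs, 91 met that filter and 30 did not. The 2 calls are 2.2% of the 91, against 1.34% of all genes tested (0.645% higher and 0.693% lower). The groups did not overlap for 16 antisense RNAs that were higher and 12 that were lower in ALDH-high clones, which is 30.8%, against 26.1% of all genes tested (14.0% higher and 12.1% lower). At an unadjusted p under 0.05 there were 19, or 20.9%, against 19.7% of all genes. On the recovered reads, edgeR called 2 antisense RNAs, the same pair, against 1.02% of all genes, and DESeq2 called 9, against 7.9% of all genes.

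**Figure D1:**
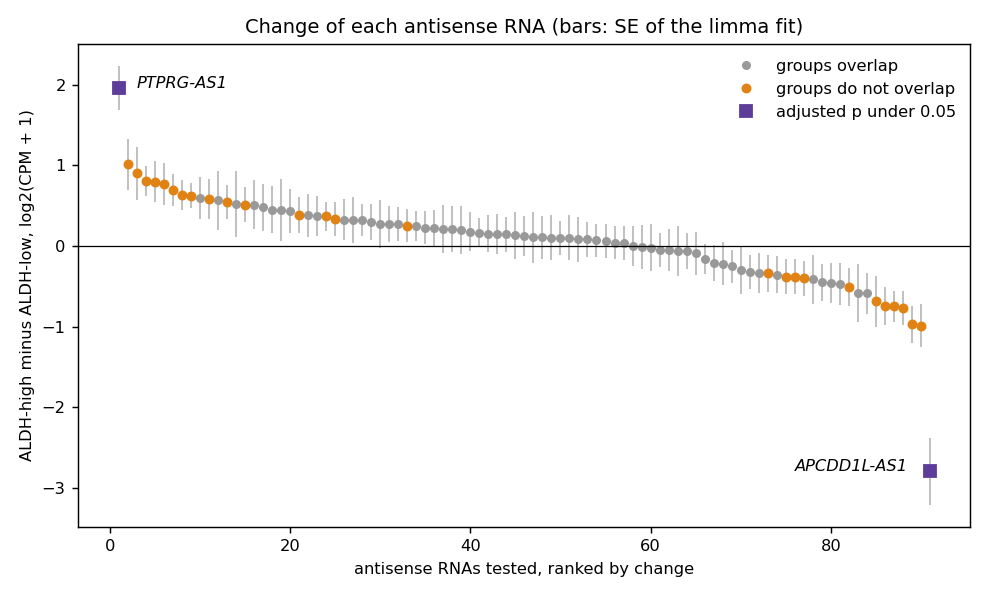
Change of each of the 91 tested antisense RNAs (y axis, difference of ALDH-high from ALDH-low in log2(CPM + 1), bars are the SE of the limma fit), ranked from highest to lowest on the x axis. PTPRG-AS1 at 1.96 and APCDD1L-AS1 at -2.79 stand at the ends, squares mark adjusted p under 0.05 and orange points mark groups that do not overlap.

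PTPRG-AS1 (ENSG00000241472, chromosome 3) is the antisense partner of PTPRG, which encodes protein tyrosine phosphatase receptor type gamma, studied as a candidate tumour suppressor. PTPRG-AS1 was at 14.35, 12.76 and 17.24 CPM across ALDH-high clones 1, 6 and 10, against 1.8, 4.12 and 3.56 CPM across ALDH-low clones 1, 3 and 8, with 4.76 CPM in wild type. Every ALDH-high clone was thus above every other library, and the wild type lay just above the ALDH-low clones. The means were 14.8 ± 2.27 CPM across ALDH-high clones and 3.16 ± 1.21 CPM across ALDH-low clones (SD, n = 3 each). The change was 1.96 (SE 0.27) on log2(CPM + 1), with an adjusted p of 0.0215 (limma). Leaving out ALDH-high clone 6 or 10, or clone 1 or 8 of the ALDH-low group, ended the call (adjusted p of 0.0501 to 0.104, limma), while the change stayed between 1.70 and 2.13 when any 1 clone was left out.

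The sense gene differed in the same direction by a smaller amount, which did not pass the test. PTPRG was at 9.18, 9.48 and 11.4 CPM across ALDH-high clones, against 5.12, 4.99 and 6.88 CPM across ALDH-low clones, with 8.07 CPM in wild type. The clone groups did not overlap, and the wild type lay between them. Its change was 0.73 (SE 0.205), with an adjusted p of 0.116 (limma) and of 0.0375 with DESeq2. The log2 ratio of antisense to sense, each at CPM + 1, was 0.59, 0.39 and 0.56 in ALDH-high clones, against -1.13, -0.23 and -0.79 in ALDH-low clones and -0.66 in wild type. The ratio was therefore positive only in the ALDH-high libraries, and its difference was 1.23. The exact permutation test (two-sided) gave p = 0.1, the smallest that 3 against 3 clones can give. This pair was singled out because PTPRG-AS1 was called in the same clones, so that p adds no separate support.

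APCDD1L-AS1 (ENSG00000231290, chromosome 20) was nearly absent from ALDH-high clones. It lies head to head with APCDD1L, a gene related to the Wnt inhibitor gene APCDD1. APCDD1L-AS1 was at 0.08, 0.12 and 0.04 CPM across ALDH-high clones, against 2.68, 11.04 and 8.44 CPM across ALDH-low clones, with 0.36 CPM in wild type. The 3 ALDH-high values are at or below the limit of 3 reads, and the ALDH-low clones differ among themselves, with clone 1 the lowest. In reads this was 6 over the ALDH-high clones and 559 over the ALDH-low clones, a ratio of 0.0109 after scaling by library size (exact 95% counting interval 0.00397 to 0.0238, which covers counting error only). The change was -2.79 (SE 0.416) on log2(CPM + 1), with an adjusted p of 0.0287 (limma). A pseudocount of 5 ended the call (adjusted p = 0.06, limma), as did leaving out any of the ALDH-high clones or clone 8 of the ALDH-low group (0.0534 to 0.129), while the change stayed between -3.30 and -2.45.

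APCDD1L itself followed the same pattern at low levels. It was at 0.04, 0.08 and 0 CPM across ALDH-high clones, against 1.04, 1.34 and 1.24 CPM across ALDH-low clones, with 0.12 CPM in wild type. All ALDH-high values were again under the limit of 3 reads, and the wild type was at it. With 3 reads over the ALDH-high clones and 91 over the ALDH-low clones, the ratio was 0.0334 (exact 95% counting interval 0.00676 to 0.101). The change of -1.08 (SE 0.204) had an adjusted p of 0.051 (limma), which was 0.0335 with edgeR and 0.000596 with DESeq2. Both genes of this pair were thus low in the ALDH-high clones and in the wild type.

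The one sense partner that passed the test was MYLK, which encodes myosin light chain kinase, the enzyme that activates actomyosin contraction. Of the 99 sense partners, 97 met the filter, and the 1 call is 1.03% of them, against 1.34% of all genes tested. MYLK was at 2.23, 5.54 and 4.72 CPM across ALDH-high clones, against 14.2, 28.01 and 15.2 CPM across ALDH-low clones, with 8.27 CPM in wild type. The groups did not overlap, and the wild type lay between them. MYLK fell, with a change of -1.96 (SE 0.348) and an adjusted p of 0.0427 (limma). The call was lost with edgeR (adjusted p = 0.0517), without a filter (0.0522), with a filter at 5 CPM (0.0534) and when any 1 clone was left out (0.0602 to 0.142).

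MYLK-AS1, which overlaps MYLK in part, was not called. It was at 7.59, 6.57 and 6.36 CPM across ALDH-high clones, against 4.72, 5.74 and 6.72 CPM across ALDH-low clones, with 6.67 CPM in wild type. These groups overlapped, and the change was 0.23 (SE 0.204) with an adjusted p of 0.579 (limma). The log2 ratio of MYLK-AS1 to MYLK was 1.41, 0.21 and 0.36 in ALDH-high clones, against -1.41, -2.11 and -1.07 in ALDH-low clones and -0.27 in wild type. Its difference of 2.19 was the widest of the pairs with both genes tested.

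**Figure D2:**
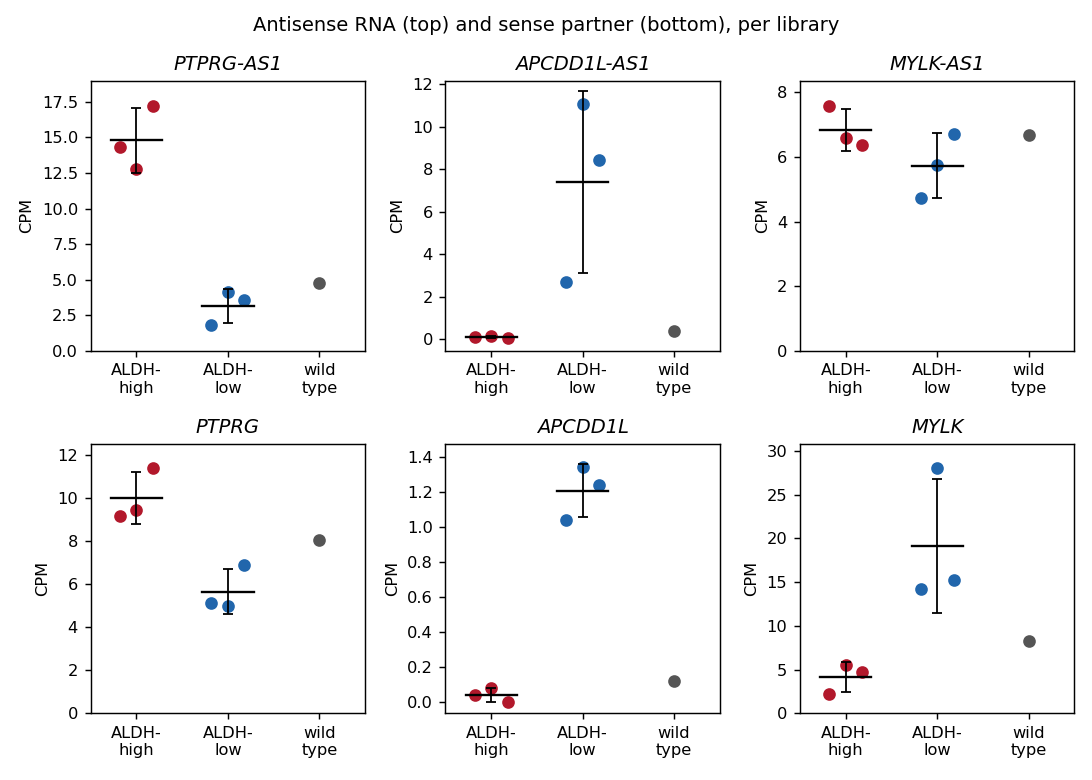
CPM of 3 antisense RNAs (top row) and their sense partners (bottom row) in each library, with ALDH-high clones, ALDH-low clones and wild type from left to right on the x axis. Points are libraries, lines are group means and bars are the SD over 3 clones. Both genes of the APCDD1L pair lie near 0 in ALDH-high clones, and MYLK separates the groups while MYLK-AS1 overlaps.

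The library size behind the deposited CPM was 24999949 or 24999950 reads in clone 10 of the ALDH-high group and clones 1 and 8 of the ALDH-low group, and differed in the other 4 libraries. Within both sets of libraries, PTPRG-AS1 was higher and APCDD1L-AS1 and MYLK were lower in ALDH-high than in ALDH-low clones. The clone groups of these genes do not overlap, so any set with clones of both groups must give this direction. It is therefore no check on a batch. Whether the sets mark a batch was not given in the sources used here.

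Among the antisense RNAs with higher values in ALDH-high clones and groups that did not overlap, none but PTPRG-AS1 passed the test. PRRT3-AS1 was at 22.01, 18.47 and 17.68 CPM across ALDH-high clones, against 10.8, 12.14 and 9.2 CPM across ALDH-low clones, with 10.11 CPM in wild type. The wild type thus sat with the ALDH-low clones. Its change was 0.80 (SE 0.186), with an adjusted p of 0.0815 (limma). FGD5-AS1, one of the more abundant antisense RNAs, was at 71.17, 96.33 and 83.04 CPM across ALDH-high clones, against 51.28, 55.9 and 53.56 CPM across ALDH-low clones, with 74.94 CPM in wild type, and its adjusted p was 0.0942 (limma). ENTPD1-AS1, named after the gene of the ectonucleotidase CD39, averaged 27.4 ± 2.93 CPM across ALDH-high clones and 17.4 ± 3.28 CPM across ALDH-low clones (SD, n = 3 each), with an adjusted p of 0.131 (limma).

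FOXN3-AS1 lies inside FOXN3, the gene of a forkhead transcriptional repressor. It was at 1.87, 2.13 and 2.16 CPM across ALDH-high clones, against 0.32, 0.08 and 1.44 CPM across ALDH-low clones, with 0.84 CPM in wild type. The ALDH-high clones were close to each other, while 1 ALDH-low clone was below the limit of 3 reads. FOXN3 averaged 3.40 ± 0.393 CPM across ALDH-high clones and 1.79 ± 0.667 CPM across ALDH-low clones (SD, n = 3 each), also without overlap. The changes were 1.01 for FOXN3-AS1 and 0.68 for FOXN3, with adjusted p of 0.147 and 0.175 (limma).

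ZNF503-AS2 is head to head with ZNF503, which encodes a zinc finger repressor. It was at 1.75, 2.05 and 2.52 CPM across ALDH-high clones, against 1, 0 and 1.28 CPM across ALDH-low clones, with 3.6 CPM in wild type. ALDH-low clone 3 had no read, and the wild type was the highest library. Its adjusted p was 0.194 (limma), and the ZNF503 groups overlapped. ATP6V0E2-AS1, NAPA-AS1 and EPB41L4A-AS1 had adjusted p of 0.12 to 0.17 (limma). With PTPRG-AS1, PRRT3-AS1, ENTPD1-AS1, FOXN3-AS1 and ZNF503-AS2 they made up the 8 largest changes in this direction among RNAs whose groups did not overlap. FGD5-AS1 was not among these 8.

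In the other direction, no antisense RNA but APCDD1L-AS1 passed the test, and the abundant OIP5-AS1 came closest. This RNA, known as Cyrano, is described in mice as directing the decay of the microRNA miR-7. OIP5-AS1 was at 49.23, 29.51 and 31.88 CPM across ALDH-high clones, against 72.04, 59.43 and 84.64 CPM across ALDH-low clones, with 51.12 CPM in wild type. The wild type and ALDH-high clone 1 lay between the other ALDH-high clones and the ALDH-low clones. The change was -0.97 (SE 0.228), with an adjusted p of 0.0834 (limma), of 0.00535 with DESeq2 and of 0.0458 without ALDH-high clone 1 (limma). OIP5, which encodes a protein needed to load histone CENP-A at centromeres, overlapped between groups at 29.04 ± 2.20 CPM across ALDH-high clones and 37.4 ± 10.4 CPM across ALDH-low clones (SD, n = 3 each).

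MCM3AP-AS1 was at 4.53, 4.64 and 4.76 CPM across ALDH-high clones, against 7.32, 9.74 and 8.48 CPM across ALDH-low clones, with 9.75 CPM in wild type. The ALDH-high values lay close together, and the wild type was level with the highest ALDH-low clone. Its change was -0.75 (SE 0.193), with an adjusted p of 0.101 (limma). MCM3AP, the gene of a protein of mRNA export, overlapped at 43.8 ± 12.5 CPM across ALDH-high clones and 47.3 ± 5.65 CPM across ALDH-low clones (SD, n = 3 each).

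WAC-AS1 was at 11.56, 9.52 and 7.68 CPM across ALDH-high clones, against 19.96, 15.75 and 15.04 CPM across ALDH-low clones, with 14.91 CPM in wild type, and its adjusted p was 0.113 (limma). Its head-to-head partner WAC, an adaptor for histone H2B ubiquitination, was at 27.82, 89.14 and 89.32 CPM across ALDH-high clones, against 102.88, 94.04 and 110.24 CPM across ALDH-low clones, with 17.94 CPM in wild type. Within the ALDH-high group, WAC was thus low in clone 1, as in the wild type, and near the ALDH-low values in clones 6 and 10. HLA-F-AS1, named after a nonclassical class I histocompatibility gene, was at 1.07, 0.37 and 0.2 CPM across ALDH-high clones, against 1.92, 1.73 and 2.32 CPM across ALDH-low clones, with 4.6 CPM in wild type. It shares all 7 values with the row of MICE, a gene of the same region, so the source of its reads is uncertain, and its adjusted p was 0.107 (limma). TPT1-AS1, BAIAP2-AS1 and DLGAP1-AS1 were the other 3 of the 8 largest changes in this direction among RNAs whose groups did not overlap, with adjusted p of 0.145 to 0.288 (limma).

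Over all 91 tested antisense RNAs, 57 changes were above 0 and 34 below 0, with a median of 0.12 on log2(CPM + 1), against a median of 0.00 over all genes tested. Under median-ratio scaling and quantile normalization the medians were 0.11 and 0.11, and without ALDH-high clone 1 the counts were 52 above and 39 below 0 with a median of 0.05. Without ALDH-low clone 1 they were 51 above and 40 below 0 with a median of 0.07. The 97 tested sense partners had 44 changes above 0 and 53 below 0, with a median of -0.05. For comparison with RNAs of other naming classes, 1 of 40 tested LINC RNAs passed the limma test (LINC00162, lower in ALDH-high clones, singled out after its values were seen), edgeR called 0 and DESeq2 2, and the median change was -0.08. Of 12 tested SNHG RNAs, the hosts of small nucleolar RNAs, none passed the limma test, 7 had an unadjusted p under 0.05, edgeR called 0 and DESeq2 1, and the median was 0.50. Over all genes tested, limma called 1.34%, edgeR 1.02% and DESeq2 7.9%, and 19.7% had an unadjusted p under 0.05. These are descriptions of the lists, whose differences were not tested.

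Within pairs, antisense and sense changes had the same sign more often than not. Both genes were tested in 72 pairs. The sign was the same in 50 (69.4%), of which 28 were higher and 22 lower in ALDH-high clones, and opposite in 22. Across the 72 pairs, the 2 changes had Pearson's r of 0.46 and Spearman's rho of 0.39, and r was 0.39 without the APCDD1L pair. The genes of all pairs were measured in the same 6 libraries, so the pairs are not independent and these values only describe them. In the 37 head-to-head pairs the sign was the same in 28 (75.7%), in the 29 partly overlapping pairs in 18 (62.1%), and in the 5 pairs with the antisense gene inside in 4. For comparison, 1243 other head-to-head pairs of listed genes had the same sign in 783 (63.0%). The difference between these shares was not tested.

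**Figure D3:**
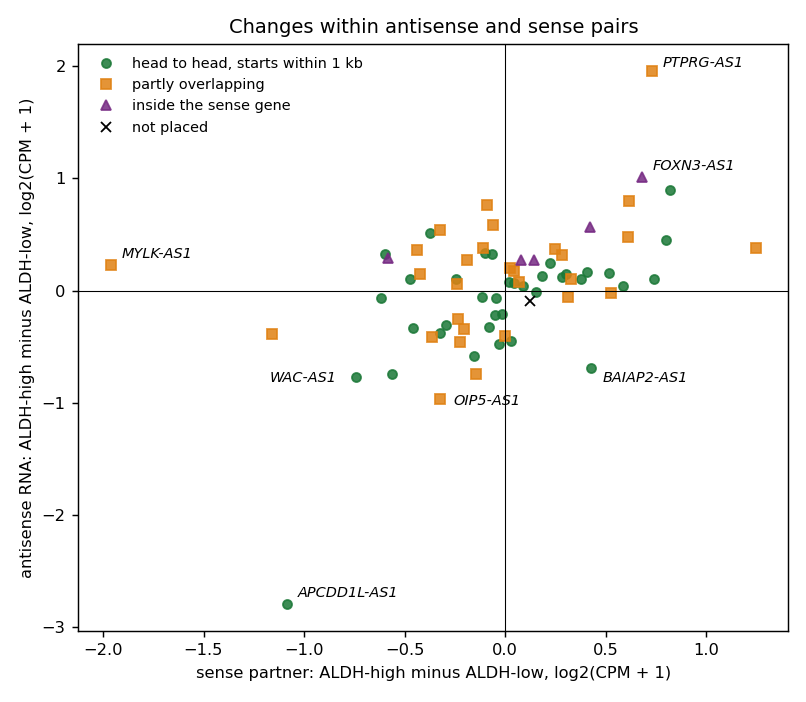
Change of the antisense RNA (y axis) against change of its sense partner (x axis), both as the difference of ALDH-high from ALDH-low in log2(CPM + 1), for the 72 pairs with both genes tested, by arrangement. Most points lie in the quadrants of equal sign (50 of 72), with the MYLK and BAIAP2 pairs outside them.

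Ratios within pairs were compared next, since they set the antisense RNA against its own sense gene in each library. The ratio of antisense to sense did not overlap between groups in 19 of the 72 pairs, 13 with a higher and 6 with a lower ratio in ALDH-high clones. Among the 1243 other head-to-head pairs, 23.7% did not overlap. Only 37 of the 72 antisense pairs are head to head, so the sets differ in arrangement, and the difference between them was not tested. After MYLK, the widest differences among pairs of opposite sign were in the BAIAP2, RBM26, NDUFA6 and IDH1 pairs. These pairs were chosen for that difference, so it is a description with no test.

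BAIAP2 encodes IRSp53, an adaptor between membranes and actin. BAIAP2-AS1, head to head with it, was at 0.44, 2.18 and 1.68 CPM across ALDH-high clones, against 2.84, 2.4 and 2.92 CPM across ALDH-low clones, with 0.64 CPM in wild type. ALDH-high clone 1 and the wild type were the lowest libraries. BAIAP2 was at 11.09, 23.76 and 17.68 CPM across ALDH-high clones, against 9.76, 15.48 and 11.92 CPM across ALDH-low clones, with 10.47 CPM in wild type, so its groups overlapped. The log2 ratio, each at CPM + 1, averaged -2.94 ± 0.14 in ALDH-high clones and -1.83 ± 0.41 in ALDH-low clones (SD, n = 3 each). The difference was -1.12. With BAIAP2-AS1 at 0.44 to 2.92 CPM in the clones, the added 1 narrows this spread. Without it, ALDH-high clone 1 would lie well below clones 6 and 10.

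RBM26 encodes an RNA-binding protein, and its pair had changes of 0.33 for RBM26-AS1 and -0.60 for RBM26. RBM26 was at 26.62, 27.91 and 33.6 CPM across ALDH-high clones, against 32.68, 60.22 and 45.36 CPM across ALDH-low clones, with 21.7 CPM in wild type. RBM26-AS1 was at 2.54, 2.13 and 1.76 CPM across ALDH-high clones, against 0.76, 2.44 and 1.56 CPM across ALDH-low clones, with 1.24 CPM in wild type. Each gene alone overlapped between groups. The log2 ratio, each at CPM + 1, averaged -3.27 ± 0.35 in ALDH-high clones and -4.20 ± 0.05 in ALDH-low clones (SD, n = 3 each). With RBM26-AS1 at 0.76 to 2.54 CPM in the clones, the added 1 narrows this spread. The small SD of the ALDH-low clones is thus no sign of a constant ratio.

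NDUFA6 encodes a subunit of mitochondrial complex I. NDUFA6-AS1, head to head with it, averaged 4.08 ± 0.48 CPM across ALDH-high clones and 2.57 ± 0.533 CPM across ALDH-low clones (SD, n = 3 each) without overlap, while NDUFA6 averaged 228 ± 43.5 CPM across ALDH-high clones and 292 ± 24.6 CPM across ALDH-low clones with overlap. The log2 ratio was higher by 0.88. IDH1, the cytosolic isocitrate dehydrogenase, contains IDH1-AS1, and their log2 ratio was also higher by 0.88, with both genes overlapping between groups. None of the genes of these 4 pairs passed the test alone (adjusted p of 0.207 to 0.568, limma).

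**Figure D4:**
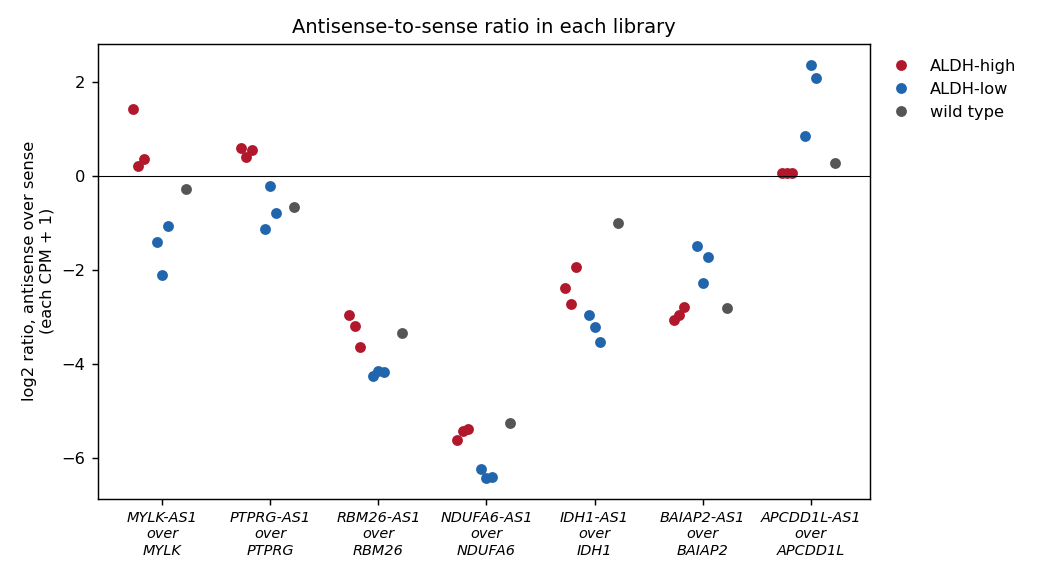
Log2 ratio of antisense to sense, each at CPM + 1 (y axis), in each library for 7 pairs (x axis), with ALDH-high, ALDH-low and wild type from left to right within a pair. In all 7 pairs shown the ALDH-high and ALDH-low points do not overlap, and the pairs were chosen for a call or for opposite signs. In the APCDD1L pair both ALDH-high levels are near 0 CPM, where the added 1 sets the ratio. In the BAIAP2 and RBM26 pairs the antisense levels are low, and the added 1 narrows the spread between clones.

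Levels of the antisense RNAs ranged widely. The mean over the 6 clones was 2.89 CPM at the median of the 121, 30 were under 1 CPM and 24 at 10 CPM or more. The most abundant was C17orf76-AS1, at 1076.76, 729.28 and 556.4 CPM across ALDH-high clones, against 424.68, 636.26 and 467.68 CPM across ALDH-low clones, with 1115.89 CPM in wild type. It shares all 7 values with SNORD49A and SNORD49B, small nucleolar RNAs of the same strand. EPB41L4A-AS1 was at 81.02, 59.51 and 53.8 CPM across ALDH-high clones, against 35.52, 46.47 and 36.32 CPM across ALDH-low clones, with 105.59 CPM in wild type, and it shares its values with SNORA13. The other 4 of the 6 highest clone means were FGD5-AS1, OIP5-AS1, NUTM2A-AS1 and PITPNA-AS1. Divided by exon length (merged GENCODE 29 exons), the clone mean of the antisense RNA was below that of its sense gene in 70 of 97 pairs and above it in 27, and the sense gene was 4.19-fold higher at the median. The type of library was not given in the sources used here, and for a count of 5′ ends length would not enter.

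PITPNA-AS1 varied less between libraries than its sense gene. PITPNA-AS1 was at 54.84, 40.22 and 36 CPM across ALDH-high clones, against 40.36, 33.15 and 49.92 CPM across ALDH-low clones, with 60.31 CPM in wild type. PITPNA, a phosphatidylinositol transfer protein, was at 20.23, 150.58 and 140.68 CPM across ALDH-high clones, against 94.04, 39.24 and 101.88 CPM across ALDH-low clones, with 14.79 CPM in wild type. PITPNA was thus lowest in the wild type and ALDH-high clone 1, and its groups overlapped fully.

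Of a list of 72 antisense RNAs studied elsewhere, 25 were in the table and 20 were tested, of which 11 had changes above 0 and 9 below 0, and 1 (APCDD1L-AS1) passed the test, where 1.34% of all genes did. ZEB1-AS1, partner of the epithelial-mesenchymal transition factor ZEB1, averaged 3.66 ± 0.471 CPM across ALDH-high clones and 4.96 ± 1.22 CPM across ALDH-low clones (SD, n = 3 each), with 9.35 CPM in wild type and an adjusted p of 0.446 (limma). TRAF3IP2-AS1 averaged 12.1 ± 1.44 CPM across ALDH-high clones and 8.03 ± 1.45 CPM across ALDH-low clones, with an adjusted p of 0.198 (limma). SBF2-AS1 averaged 20.8 ± 0.926 CPM across ALDH-high clones and 16.1 ± 3.05 CPM across ALDH-low clones, with an adjusted p of 0.318 (limma). The groups of these 3 RNAs did not overlap, yet none passed the test. VIM-AS1, beside the abundant mesenchymal gene VIM, ranged from 0.16 to 1.27 CPM, and its clone groups overlapped. DICER1-AS1 was at 0.91, 0.49 and 0.24 CPM across ALDH-high clones, against 0.32, 0.16 and 0.04 CPM across ALDH-low clones, with 2.36 CPM in wild type. Its clone groups overlapped, it was not tested at this level, and the wild type was the highest library.

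Some antisense RNAs set 1 clone apart from every other library. PXN-AS1, partner of the focal adhesion gene PXN, was at 27.3 CPM in ALDH-high clone 1 and at 11.16 to 17.4 CPM in the other libraries. PXN was also highest in that clone, at 188.08 CPM. SERTAD4-AS1 was lowest in ALDH-high clone 10, at 5.48 CPM, with at least 7.8 CPM elsewhere. STARD4-AS1, beside the gene of a sterol transfer protein, was at 0.7 CPM in ALDH-high clone 6 and at most 0.16 CPM elsewhere. CD27-AS1 was lowest in ALDH-low clone 8, at 1.04 CPM. For ALDH-low clones 1 and 3 the RNAs were PTPRG-AS1 and ZNF503-AS2, given above. These are single libraries, without a test.

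The wild type was the highest library for 61 of the 121 antisense RNAs (50.4%), against 23.8% of all listed genes, and the lowest for 10 (8.26%), against 24.1%. Among tested genes the wild type was highest for 47.3% of antisense RNAs and 22.6% of all genes. It was lowest for 9.89% of tested antisense RNAs and 25.4% of all genes. The wild type was highest for 31 of 67 tested antisense RNAs with a clone mean under 10 CPM (46.3%, against 31.3% of such genes). At 10 CPM or more it was highest for 12 of 24 (against 18.3% of such genes). It was lowest for 7 of the 67 (10.4%, against 15.3%) and for 2 of the 24 (8.33%, against 30.4%). Levels were not matched within these 2 wide ranges, and the part of level was not tested. The median clone mean was 2.89 CPM for the 121 antisense RNAs and 16.7 CPM for all listed genes. The sense partners of the antisense RNAs were at the share of all genes, with the wild type highest for 24 of 99 (24.2%). LINC RNAs were between on this share, with 17 of 48 (35.4%). With the wild type lowest for 4 of 48 (8.33%), they were near the antisense RNAs. Of 12 SNHG RNAs, the wild type was highest for 3 (25.0%) and lowest for 3 (25.0%). Since the wild type is 1 library, its cells and its library preparation cannot be told apart, and these shares carry no test. ALDH-low clone 1 was the highest library for 3 antisense RNAs (2.48%, against 10.1% of all listed genes), a difference that was not tested.

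TM4SF1-AS1 had the widest gap between wild type and clones on log2(CPM + 1). It was at 2.58, 3.41 and 3.32 CPM across ALDH-high clones, 3.04, 1.02 and 2.28 CPM across ALDH-low clones and 24.34 CPM in wild type. Its partner TM4SF1, a membrane glycoprotein described in several carcinomas, lies head to head with it and was at 525.45, 414.82 and 961.76 CPM across ALDH-high clones, 421.84, 252.47 and 370.52 CPM across ALDH-low clones and 1317.32 CPM in wild type. The wild type was the highest library for both genes. The wild type exceeded the highest clone by 2.52 log2 units for TM4SF1-AS1 and by 0.45 for TM4SF1. In CPM, KDM5B-AS1 (at most 0.08 in the clones and 1.12 in wild type) and MLLT4-AS1 (at most 0.04 in the clones and 1.08 in wild type) had larger ratios, from clone values under the limit of 3 reads.

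IDH1-AS1 was at 1 to 2.23 CPM in the clones and at 7.31 CPM in wild type, while IDH1 lay within the clones. TIPARP-AS1, partner of an ADP-ribosyltransferase gene induced by the aryl hydrocarbon receptor, was at 0.68 to 1.99 CPM in the clones and at 6.35 CPM in wild type. LEPREL1-AS1, beside the gene of a collagen prolyl hydroxylase, was at 0.08 to 0.4 CPM in the clones and at 2.08 CPM in wild type. For these 3 pairs the sense gene in wild type was within the range of the clones, unlike TM4SF1. In all, 6 antisense RNAs were over 1 log2 unit above every clone (4.96%, against 1.58% of all listed genes) and 0 were as far below (0.606% of all listed genes). Of 48 LINC RNAs, 3 (6.25%) were over 1 log2 unit above every clone, and of 12 SNHG RNAs 0 were.

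The wild type lay farthest below the clones for 4 antisense RNAs. PRR7-AS1 was at 7.23 to 11.68 CPM in the clones and at 4.52 CPM in wild type, and PRKCQ-AS1 at 6.2 to 9.08 CPM in the clones and at 3.88 CPM in wild type. ZBED3-AS1 was at 1.76 to 3.7 CPM in the clones and at 0.92 CPM in wild type, and IQCH-AS1 at 7.87 to 14.97 CPM in the clones and at 5.2 CPM in wild type. Their sense genes were not low there: PRR7, ZBED3 and IQCH were highest in wild type, and PRKCQ, the gene of protein kinase C theta, lay within the clones.

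**Figure D5:**
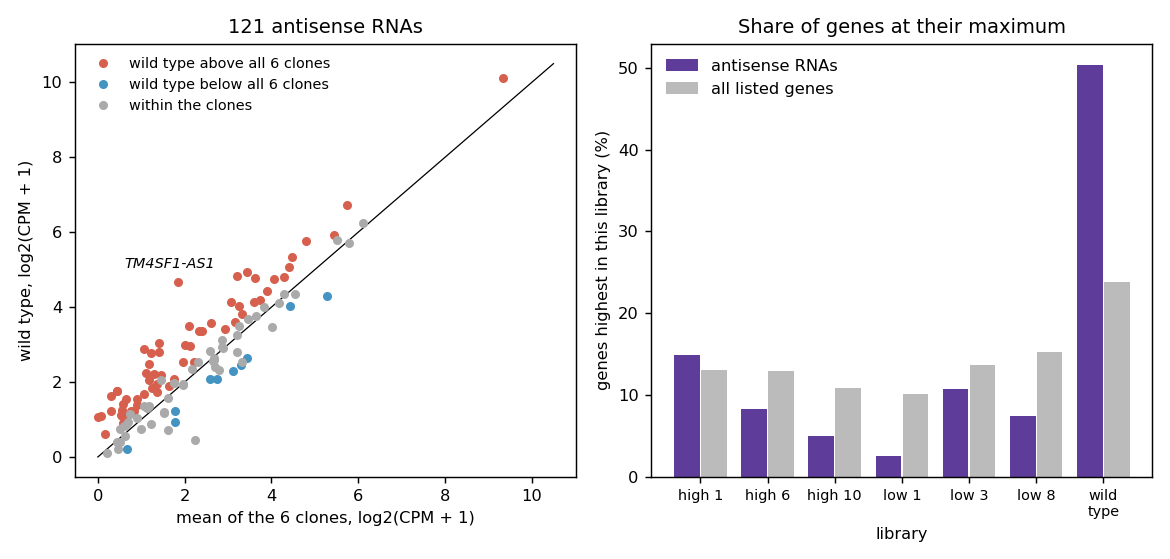
Left, wild-type level of each of the 121 antisense RNAs (y axis) against its mean over the 6 clones (x axis), both as log2(CPM + 1), with the line of equality. Right, the percentage of antisense RNAs and of all listed genes that are highest in each library, by library on the x axis; the wild type holds 50.4% of antisense RNAs and 23.8% of all genes.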

How the data were processed

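Total RNA of 3 ALDH-high clones, 3 ALDH-low clones and 1 wild-type culture of UM-UC-3 was sequenced by the submitters. The deposited table holds 13872 genes in CPM for 7 libraries, per the file headers, and lists genes that reach 0.52 CPM or more in some library. The submitters' processing notes name BWA 0.5.9, hg19 and mm9 without their roles. Column headers carry the name of CAGEr, a package for 5′-end tags, but the library type, the counting and the strand setting are not given in the sources used here. Low values in each column are whole multiples of 1 read, at a tolerance of 0.0051 CPM for 100% of values and of 0.1 read for 78.7 to 99.8%, and whole reads were recovered from them. Genes with identical values may count reads more than once in those totals.

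The 12705 genes that reached 1 CPM in no fewer than 3 of the 6 clones were tested on log2(CPM + 1). The fit was lmFit and two-sided eBayes with a variance trend (limma 3.58.1, R 4.3.3), and the Benjamini-Hochberg threshold was 0.05. Fold changes on this scale understate those of low genes. The ratio of the PTPRG pair had an exact permutation test over the 20 splits of the clones, and ratios of pairs chosen for their difference are given without a test. P-values measure the spread between clones of 1 line. The wild type stayed out of the fit. As alternatives, the pseudocount was set to 0.1 or 5, the filter dropped or raised to 5 CPM, the columns rescaled by median ratios or by quantiles, the variance trend dropped, all 7 libraries fitted, 1 gene kept per set of identical values, each clone left out, and the test changed to edgeR 4.0.16 (quasi-likelihood) or DESeq2 1.42.0 on recovered reads. Scripts were tested on simulated data.

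The members, the lists and the tests were chosen with earlier results of these data known. The rule for named RNAs took those passing the test, the 8 largest changes in each direction without overlap between groups, the 6 highest levels, 5 pairs each with opposite and same signs, 4 RNAs in each direction with the wild type farthest outside the clones, 1 per clone with the widest gap, their sense partners, and a list of characterised antisense RNAs. Arrangement came from GENCODE 29, which holds 119 of the 121 by identifier. Promoter windows came from RefSeq (GRCh38.p14), which matched 81 of the 121 by symbol.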

Additional observations from a re-analysis of the deposited data

How the results depend on the processing

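The count of antisense RNAs called was 2, and it was 1 with a pseudocount of 5 and 1 with a filter at 5 CPM (PTPRG-AS1 in both), 9 with DESeq2 and 0 to 2 when 1 clone was left out. Without ALDH-high clone 1 the 2 calls were PTPRG-AS1 and OIP5-AS1. DESeq2 called PTPRG-AS1, PRRT3-AS1, FGD5-AS1, ENTPD1-AS1 and EPB41L4A-AS1 as higher and APCDD1L-AS1, OIP5-AS1, WAC-AS1 and MCM3AP-AS1 as lower, against a share of 7.9% of all genes called. The count of sense partners called was 1, and it was 2 with a pseudocount of 0.1, 0 with a filter at 5 CPM, 3 with median-ratio scaling, 3 with quantile normalization, 2 without a variance trend, 7 with DESeq2 and 0 whenever 1 clone was left out. Over all genes, 170 were called, with 86 under the filter at 5 CPM, 1004 with DESeq2, 129 with edgeR and 34 to 173 without 1 clone. The cause of these differences was not tested. Fewer genes were tested under the stricter filter, and fewer clones were fitted when 1 was left out. Of 560 values for 37 single changes and ratios, 527 kept their direction and side of the threshold (or moved by less than the spread), 18 lost a call, 15 gained one and 0 changed sign. No paired analysis was made, because the labels link no ALDH-high clone to an ALDH-low clone. The numbers only name clones within each group. Depth limits the low RNAs: the 30 antisense RNAs with a mean under 1 CPM over the clones were not tested.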
